A study of Mus musculus with 18 samples.

Results

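The genes described here are 10 genes of the Hippo pathway and its transcription factors, followed in bulk RNA-sequencing counts from cardiac fibroblasts of neonatal mice. They were taken by name from the deposited count table, with no threshold on a measured value, and are 10 of its 55453 gene symbols. All 10 were among the 16170 genes that passed the filter on low counts and were tested. Yap1 and Wwtr1 (which encodes Taz) are the transcriptional co-activators of the pathway, Tead1, Tead2, Tead3 and Tead4 are the DNA-binding factors they act through, and Lats1 and Lats2 are the kinases that hold the co-activators out of the nucleus. Amotl2 encodes a membrane-associated scaffold that binds the co-activators, and Vgll3 a cofactor that competes for Tead binding.

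Hippo signalling reads cell density, shape and tension. When its kinases are active they phosphorylate Yap1 and Taz, which are then kept in the cytoplasm or degraded, and when the kinases are silent the co-activators enter the nucleus and drive Tead target genes such as Ccn1 and Ccn2. In the heart the pathway is known for restraining cardiomyocyte division after birth and for its part in fibroblast activation. Most of this control acts on the proteins, which these RNA counts did not measure.

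The study set fibroblasts of a heart that can regenerate after injury at P2 beside those of a heart that no longer can at P10. Pups carried Tcf21-MerCreMer and Rosa-mTmG on a background of C57BL/6J mice and received tamoxifen at P1, so that cells with an active Tcf21 promoter at that time, and their descendants, were marked by GFP. GFP-positive cells were sorted from the apical portion of the ventricles, from hearts that were not operated (P2 baseline and P10 baseline), and from hearts taken 3 days after surgery, at P5 or P13. The surgery was an apical resection, which removes the tip of the ventricles (P2 resected +3 days and P10 resected +3 days), or a sham operation without it (P2 sham +3 days and P10 sham +3 days). Each of the 6 groups held 3 libraries. The 3 P2 groups form the regenerative window and the 3 P10 groups the non-regenerative window, with 9 libraries each.

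All groups shared the reporter and the tamoxifen, so none of them is free of either. Neither the number of pups in a library nor their sex is given in the sources used here, and the p-values therefore measure the spread between libraries, part of which may be technical. The enzymatic digestion lasted between 20 and 30 minutes and was longer for older hearts, so digestion time and age cannot be told apart.

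Between 10462737 and 22980554 reads were counted on genes in a library. Genes that define the labelled cell type were present throughout. Tcf21 stood at 203 to 447 CPM (counts per library size after TMM scaling) in the P2 window and at 231 to 376 CPM in the P10 window, and Pdgfra at 256 to 581 and 333 to 878 CPM. The summed level of 12 cardiomyocyte markers was 318 to 1526 CPM in the P2 window and 162 to 829 CPM in the P10 window, with at most 3 of the 12 at 0 in a library. Fewer cells of a type and less RNA per cell cannot be told apart in bulk samples.

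The DNA sequence that Tead factors recognise has the core GGAATG, or CATTCC on the other strand. Both were searched in the 250 bases before each RefSeq transcription start (build GRCm38.p6), where 12.6% of all 32851 windows held at least 1 match, as did at least 1 window of 14.4% of the 27025 genes. Windows were held for 8 of the 10 genes, Tead1 and Tead4 being the other two. A match was found for 5 of these 8, namely Yap1, Wwtr1, Tead3, Amotl2 and Vgll3, and none for Tead2, Lats1 and Lats2. The stretches below are shown because they place the letters of a Tead core next to genes of the pathway itself, with the core in capitals and each written 5′ to 3′ on the strand of its gene. Of 15 target genes of the pathway with a window, Amotl2 and Lats2 among them, 6 held a match (40.0%). Ccn1, a standard target gene that held one, is added for comparison.
Yap1: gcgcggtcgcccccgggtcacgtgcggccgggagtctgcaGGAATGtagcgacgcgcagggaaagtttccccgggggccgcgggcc
Wwtr1: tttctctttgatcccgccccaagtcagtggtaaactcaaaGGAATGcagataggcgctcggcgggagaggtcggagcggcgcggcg
Tead3: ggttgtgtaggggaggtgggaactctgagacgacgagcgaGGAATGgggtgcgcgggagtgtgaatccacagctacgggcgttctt
Vgll3: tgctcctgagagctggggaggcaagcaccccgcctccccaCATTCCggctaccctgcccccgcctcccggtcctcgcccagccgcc
Amotl2: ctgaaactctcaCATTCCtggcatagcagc
Ccn1: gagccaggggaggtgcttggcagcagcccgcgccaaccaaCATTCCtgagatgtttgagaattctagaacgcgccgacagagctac

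The Yap1 stretch is chr9:8004692-8004777 on the minus strand, with its core 141 bases before the start. That of Wwtr1 is chr3:57576001-57576086 on the minus strand, 136 bases before the first of its 2 starts. The Tead3 stretch is chr17:28350942-28351027 on the minus strand, 182 bases before the first of 3 starts, while the second had 2 matches and the third none. The Vgll3 stretch, chr16:65815086-65815171 on the plus strand, has its core 63 bases before the start, and the Amotl2 stretch, chr9:102717727-102717756 on the plus strand, 65 bases before it. The Amotl2 stretch lies in an exon of another annotated Amotl2 transcript and is given with 12 bases on either side of the core. The Ccn1 stretch is chr3:145650043-145650128 on the minus strand, with its core 103 bases before the start. These are matches of letters, and whether a Tead factor sits there in fibroblasts was not measured.

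Levels of different genes were compared per length, as CPM per kilobase of the union of annotated exons (GENCODE M21, the same assembly as the counts), over all 18 libraries. Wwtr1 was the highest of the 10, at 40.4 ± 10.1 CPM per kb (SD, n = 18), and was above the next gene, Amotl2 (19.3 ± 4.57), in 18 of 18 libraries. Tead2 (10.4 ± 4.85) and Lats2 (9.44 ± 2.02) followed, with Tead2 the higher of the pair in 11 of 18 libraries, so that their order was within their spread. Lats2 was above Vgll3 (6.66 ± 1.78) in 18 of 18 libraries. Vgll3 was above Lats1 (5.17 ± 2.00) in 15 libraries and Lats1 above Yap1 (4.51 ± 1.13) in 11, so that these neighbours overlapped. Yap1 exceeded Tead1 (2.33 ± 1.36) in 17 libraries, Tead1 exceeded Tead3 (1.73 ± 0.43) in only 10, and Tead4 was the lowest in every library.

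Taz transcripts were therefore more abundant than Yap1 transcripts in these fibroblasts, by 4.50-fold to 12.6-fold per length in single libraries, with a median of 9.10-fold. With longest transcripts as lengths the ratio was 2.61-fold to 7.33-fold, with a median of 5.28-fold. Lats2 exceeded Lats1 by 1.26-fold to 3.36-fold. The Lats2 value carries a limit of counting, since 42.4% of its exon bases are shared on the same strand with the gene model Gm49361, and reads in such shared bases are assigned to neither gene by the counter's default. Gm49361 had 0 counts in every library. The level of Lats2 per length, its place beside Tead2 and its ratio to Lats1 are therefore read as lower limits for Lats2. Taking the longest transcript as the length moved Yap1 up to 7.91 CPM per kb, above Vgll3 and Lats1, and put Tead3 (3.36) above Tead1 (3.17).

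**Figure D1:**
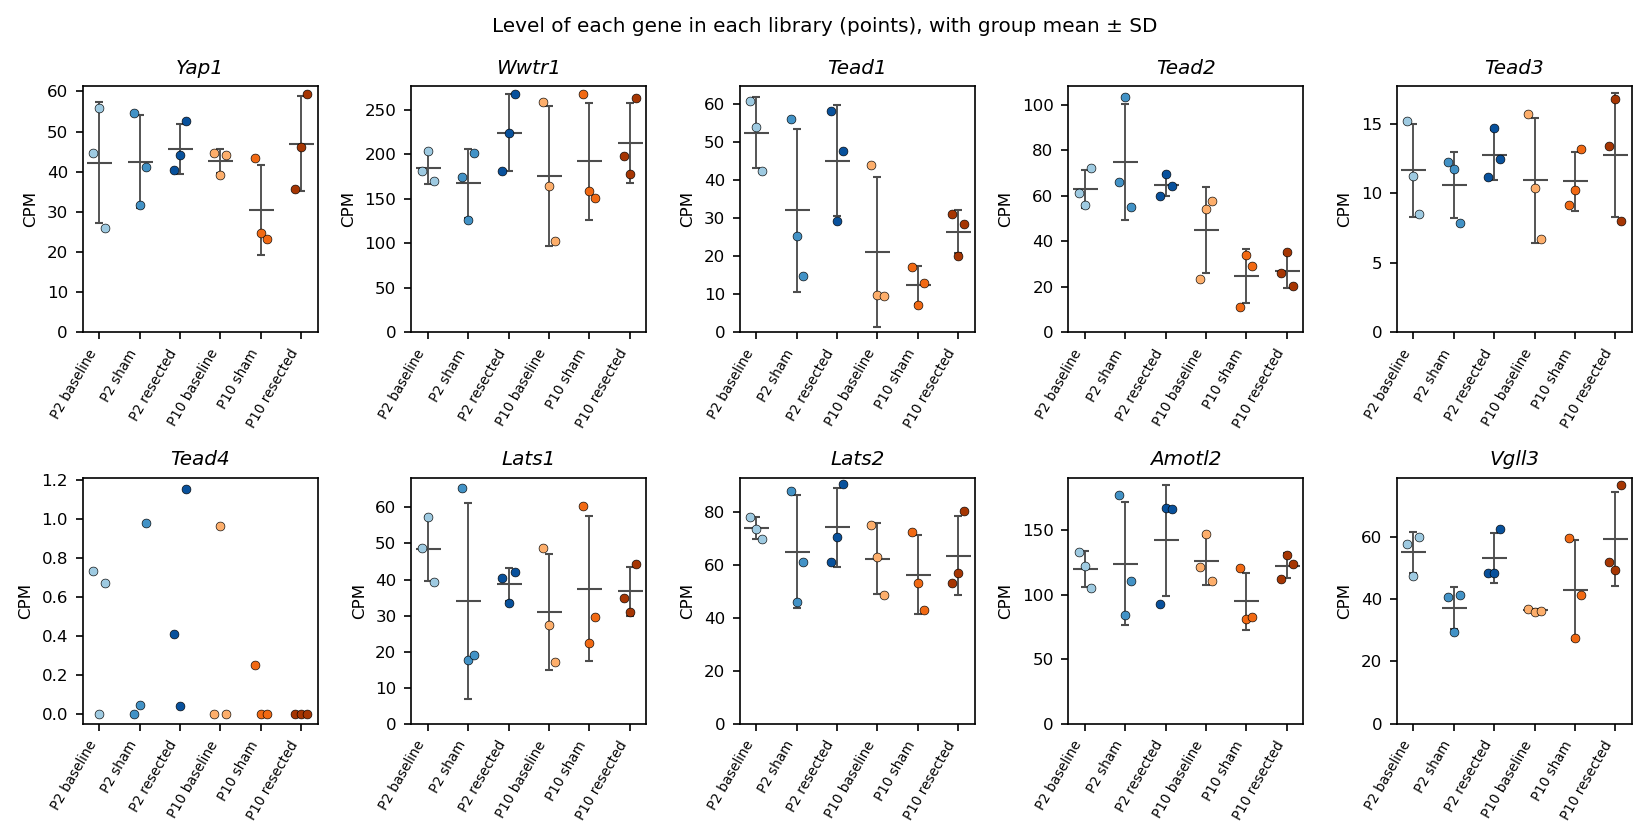
Level of each of the 10 genes in CPM (vertical axes, each with its own scale) in the 6 groups of 3 libraries (horizontal axes). Points are libraries, bars are group means ± SD, and none is drawn for Tead4, whose libraries hold at most 21 counts. Tead2 lies at 55.2 to 104 CPM in the P2 groups and at 11.3 to 57.8 CPM in the P10 groups, while the ranges of Yap1, Wwtr1, Tead3 and Lats2 at the 2 ages overlap over most of their length.

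The paper compared the windows by principal components and listed genes that differed with age at baseline. For this report the P10 window was tested against the P2 window over all 3 conditions. Of the 10 genes, 2 fell and none rose, Tead1 and Tead2, where 13.5% of all genes tested were called in either direction and 6.39% were called lower. The other 8 did not pass the test in this contrast. The median log2 fold change over the 10 genes was -0.18, beside -0.06 over all genes tested. Calls here and below are edgeR quasi-likelihood tests with adjusted p under 0.05 over all genes tested.

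Tead2, the family member best known from embryonic and proliferating tissue, was the most abundant Tead gene by mean level per length and lies at chr7:45215753-45233644 (GRCm38, plus strand). Its libraries stood at 61.2, 55.9 and 72.3 CPM at P2 baseline, at 66.0, 104 and 55.2 CPM in P2 sham +3 days and at 60.2, 69.8 and 64.4 CPM in P2 resected +3 days. At P10 they stood at 23.4, 54.2 and 57.8 CPM at baseline, 11.3, 34.0 and 29.0 CPM after sham surgery and 26.1, 35.1 and 20.3 CPM after resection. All P10 libraries but 1, at baseline, lay below every P2 library, and the windows met only between 55.2 and 57.8 CPM. The fitted log2 fold change of Tead2 was -1.11 ± 0.23 (SE), with an edgeR adjusted p of 0.0028. It was called under every one of the 26 alternative fits, between -1.30 and -0.997 on the log2 scale.

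Within single conditions the age difference of Tead2 was read from 3 libraries an age. After sham surgery its log2 fold change between ages was -1.60 ± 0.40 (SE; edgeR adjusted p = 0.035), and the groups did not overlap. After resection it was -1.25 ± 0.39 (SE; edgeR adjusted p = 0.20), without overlap but short of the threshold, and it was called in 4 of the 26 alternative fits, with adjusted p of 0.033 when only the 2 compared groups entered the fit. At baseline it was -0.48 ± 0.39 (SE; edgeR adjusted p = 0.56), and the groups overlapped through 1 library, with 57.8 CPM at P10 against a lowest P2 value of 55.9 CPM. The difference between the age effects after resection and after sham surgery, which is the interaction described below, was 0.35 ± 0.55 (log2, SE; edgeR adjusted p = 1), and the baseline age effect was not tested against either. The call after sham surgery ended when only the 2 compared groups entered the fit (adjusted p = 0.21) and without any 1 of 5 libraries, namely P2 sham +3 days replicate 2 (adjusted p = 0.13), P10 sham +3 days replicate 1 (0.12) or 3 (0.075), and P2 resected +3 days replicate 2 or 3 (0.051 each).

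Tead1, the widely expressed member of the family and the main Tead gene of adult heart muscle, lies at chr7:112679318-112906807 (GRCm38, plus strand) and has the longest exons of the 10 genes, with 13570 bases in all. It stood at 60.8, 54.1 and 42.4 CPM at P2 baseline, at 56.1, 25.2 and 14.8 CPM in P2 sham +3 days and at 58.2, 29.4 and 47.7 CPM in P2 resected +3 days. At P10 it stood at 44.0, 9.95 and 9.57 CPM at baseline, at 17.1, 7.18 and 13.1 CPM after sham surgery and at 31.0, 20.0 and 28.5 CPM after resection. The windows overlapped, with a median of 47.7 CPM at P2 and 17.1 CPM at P10, and 1 P10 baseline library stood far above the other two. The fitted log2 fold change of Tead1 was -1.14 ± 0.32 (SE), with an edgeR adjusted p of 0.024. This call rested on single libraries, since the adjusted p was between 0.050 and 0.054 without P2 sham +3 days replicate 1, P2 resected +3 days replicate 1, P10 baseline replicate 2, P10 sham +3 days replicate 2 or P10 resected +3 days replicate 2. The log2 fold change itself stayed between -1.52 and -0.918 in the 26 alternative fits.

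Libraries differed in the share of counts that fell on long genes. Genes with at least 8000 exon bases, of which Tead1 is one, took between 15.3% and 28.6% of counts. They include the collagen genes Col1a2 and Col3a1, whose longest transcripts have 5348 and 5564 bases. The share is therefore not a measure of transcript length alone. The highest shares were in P10 baseline replicate 1 (28.6%), P2 sham +3 days replicate 1 (27.96%) and P2 baseline replicate 2 (26.5%), where Tead1 stood at 44.0, 56.1 and 54.1 CPM. In the first of these it was the highest of any P10 library, and in the second the highest of the P2 sham libraries. Within P10 sham +3 days the library with the highest share (24.4%) also had the highest level (17.1 CPM), while within P10 resected +3 days the library with the highest share (22.4%) had the lowest (20.0 CPM). In P2 baseline and P2 resected +3 days the library of highest share (26.5% and 25.4%) was not the highest in level. It had 54.1 and 47.7 CPM, beside 60.8 and 58.2 CPM in replicate 1 of each group. The part of this share in the levels of Tead1 was not tested beyond the fits that follow. With this share as a covariate the log2 fold change of Tead1 between windows was -1.002 ± 0.21 (SE; edgeR adjusted p = 0.0026), and that of Tead2 was -1.30 ± 0.18 (SE; edgeR adjusted p = 6.3e-05). Without these 3 libraries the values were -1.28 ± 0.23 for Tead1 and -1.06 ± 0.22 for Tead2, both called by edgeR with adjusted p of 0.0014 and 0.0043.

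**Figure D2:**
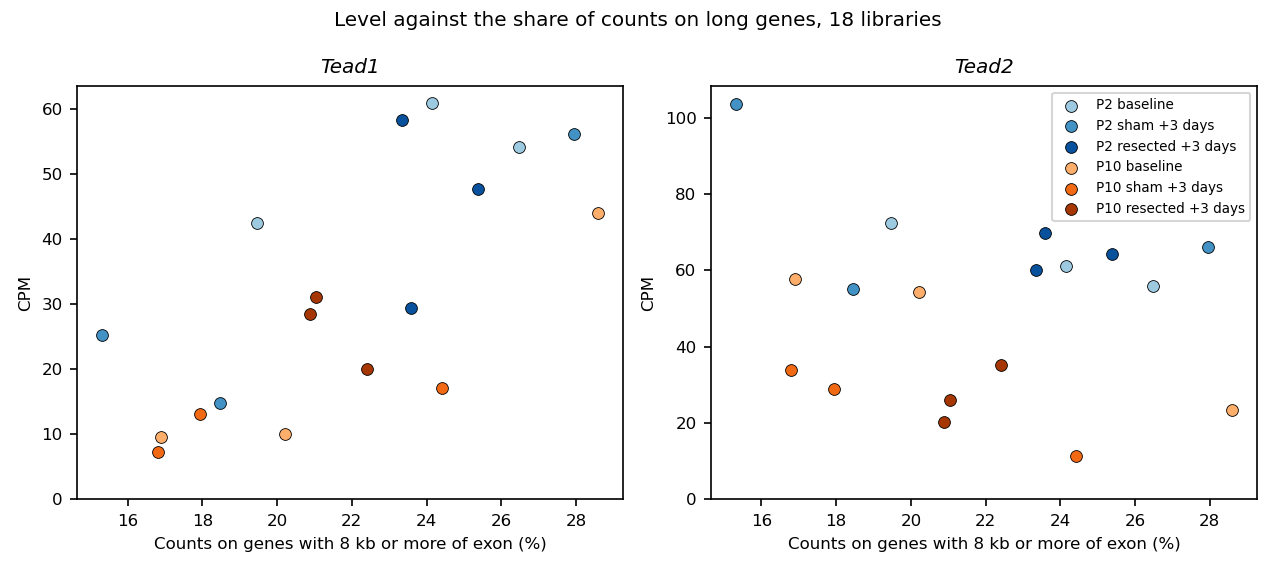
Level of Tead1 (left) and Tead2 (right) in CPM against the percentage of a library's counts on genes with 8 kb or more of exon, for 18 libraries coloured by group. Tead1 is at most 25.2 CPM in the libraries under 19% but 42.4 CPM in P2 baseline replicate 3, at 19.5%. It reaches 44.0 CPM at P10 in the library with 28.6%. The P10 libraries lie at 11.3 to 57.8 CPM of Tead2 and the P2 libraries at 55.2 to 104 CPM.

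At baseline alone, Tead1 had a log2 fold change of -1.31 ± 0.56 (SE; edgeR adjusted p = 0.22). Leaving out P10 baseline replicate 1 changed this to -2.42 ± 0.52 and brought it past the threshold (edgeR adjusted p = 0.010). Of the 10 genes, 0 were called by edgeR in that comparison, where 4.38% of all genes were, and 2 of the 10 (Tead1 and Vgll3) had an unadjusted p under 0.05, where 18.7% of all genes had. DESeq2 also called 0 of the 10 there, where it called 9.89% of all genes. Tead1 was called at baseline in 5 of the 26 alternative fits, among them the fit with the replicate block (-1.61 ± 0.41, SE; edgeR adjusted p = 0.031) and the fit without the filter on low counts (edgeR adjusted p = 0.043). Vgll3 was the 1 gene of the 10 whose baseline groups did not overlap, where 22.4% of all genes did not.

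Summed over the 4 Tead genes, the level per length was 14.0 to 25.3 CPM per kb in the P2 window and 5.05 to 13.9 CPM per kb in the P10 window. The 9 libraries of one window did not overlap with the 9 of the other, by a narrow gap that was kept with longest transcripts as lengths (20.32 against 20.29 CPM per kb at the nearest point). Each of the 4 genes taken alone overlapped between windows, where 2.51% of all genes did not. Tead2 made up 64.8% to 85.7% of the sum at P2 and 46.7% to 87.6% at P10. Tead3, whose level did not pass any test, made up 6.45% to 11.6% of the sum at P2 and 7.25% to 27.0% at P10.

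**Figure D3:**
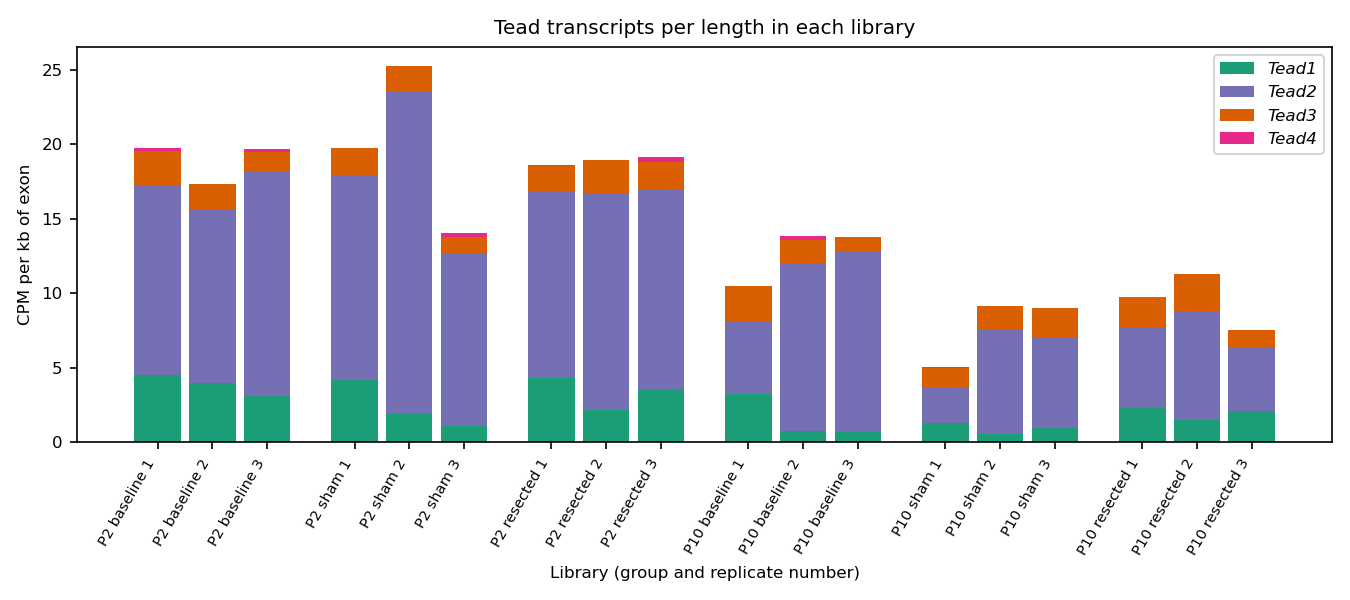
Level of Tead1, Tead2, Tead3 and Tead4 in CPM per kilobase of exon (vertical axis), stacked for each of the 18 libraries (horizontal axis, by group and replicate number). Each P2 bar reaches at least 14.0 and each P10 bar at most 13.9 CPM per kb, and Tead2 is the largest part of every bar.

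Tead3 and Tead4 gave no call in any of the 9 comparisons. Tead3 ranged from 7.83 to 15.2 CPM in the P2 window and from 6.71 to 16.8 CPM in the P10 window, with a log2 fold change of -0.02 ± 0.23 (SE; edgeR adjusted p = 0.99). Tead4, best known from the trophectoderm and from muscle precursors, was at the edge of detection. It had 16, 0 and 11 counts at P2 baseline, 0, 1 and 15 in P2 sham +3 days and 7, 1 and 21 in P2 resected +3 days, and at P10 it had 0, 18 and 0 at baseline, 5, 0 and 0 after sham surgery and 0 in all 3 libraries after resection. Counts therefore appeared in 9 of 18 libraries, 7 of them in the P2 window, and the 3 replicates of P10 baseline held 18 counts in 1 library and 0 in the others. Against the 29 counts of P2 resected +3 days, the P10 resected group was at least 8.03-fold lower, taking 3 counts over the group as the limit that a count of 0 allows, which covers counting error only. P2 resected +3 days replicate 3 held 21 of the 29 counts, and without it the bound was 3.21-fold. The fitted difference between these groups was not called (edgeR adjusted p = 0.55).

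The co-activators did not pass the test between windows. Yap1 ranged from 26.0 to 55.8 CPM at P2 and from 23.3 to 59.4 CPM at P10, with a log2 fold change of -0.14 ± 0.19 (SE; edgeR adjusted p = 0.68). Wwtr1 ranged from 126 to 268 CPM at P2 and from 103 to 268 CPM at P10, with a log2 fold change of 0.02 ± 0.18 (SE; edgeR adjusted p = 0.99). Both co-activators thus spanned nearly the same range at the 2 ages.

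The kinases and the scaffold likewise gave no call. Lats1 ranged from 17.6 to 65.3 CPM at P2 and from 17.2 to 60.2 CPM at P10 (log2 fold change -0.19 ± 0.28, SE). Lats2 ranged from 45.8 to 90.5 and from 43.1 to 80.5 CPM (-0.22 ± 0.16). Amotl2 ranged from 84.3 to 177 and from 81.2 to 147 CPM (-0.18 ± 0.16). Their edgeR adjusted p-values between windows were 0.71, 0.40 and 0.53, and their window ranges overlapped over most of their length.

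Vgll3 passed no test, although its groups did not overlap in 3 of the comparisons. It stood at 57.6, 47.5 and 59.9 CPM at P2 baseline, at 40.8, 29.4 and 41.3 CPM in P2 sham +3 days and at 48.5, 48.5 and 62.4 CPM in P2 resected +3 days. At P10 it stood at 36.8, 36.0 and 36.3 CPM at baseline, at 59.7, 27.7 and 41.3 CPM after sham surgery and at 51.9, 49.4 and 76.5 CPM after resection. The P2 sham libraries lay below both other P2 groups, and the P10 baseline libraries were within 1 CPM of each other and below all P2 baseline libraries. The log2 fold changes of Vgll3 were -0.60 ± 0.28 for P10 against P2 at baseline, -0.57 ± 0.28 for sham against baseline at P2 and 0.52 ± 0.28 for resection against sham at P2 (SE; edgeR adjusted p = 0.26, 0.67 and 1). The comparisons at P2 share the sham libraries.

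The second question of the design was the response to apical resection at each age. Of the 10 genes, edgeR called 0 at P2 and 0 at P10, and 0 of the 10 had an unadjusted p under 0.05 at either age. Among all genes, 0% were called at each age, and 4.51% at P2 and 4.09% at P10 had such an unadjusted p. DESeq2 called 0 of the 10 at both ages, where it called 0.155% and 0.241% of all genes. At P2 only Vgll3 had groups that did not overlap, where 8.47% of all genes did not, and at P10 only Tead1 did, where 8.68% of all genes did not.

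At P10 Tead1 was at 20.0 to 31.0 CPM after resection and at 7.18 to 17.1 CPM after sham surgery, with a log2 fold change of 1.09 ± 0.56 (SE; unadjusted p = 0.068 and adjusted p = 1 by edgeR). Yap1 stood at 35.6, 46.1 and 59.4 CPM after resection and at 43.5, 24.8 and 23.3 CPM after sham surgery, with a log2 fold change of 0.62 ± 0.32 (SE; unadjusted p = 0.071 and adjusted p = 1 by edgeR). The groups overlapped for Yap1 through sham replicate 1. Leaving out Tead4, the members had log2 fold changes of -0.21 to 0.52 at P2, and those other than Tead1 and Yap1 had -0.03 to 0.47 at P10. With standard errors of 0.28 to 0.56 for the 9 genes other than Tead4, a change of this size could not be told from none, which does not show that resected and sham fibroblasts were alike.

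The difference between the resection responses at P10 and at P2 was tested as an interaction. It called 0 of the 10 genes with edgeR and with DESeq2, 0 of the 10 had an unadjusted p under 0.05, and among all genes edgeR called 0% with 2.88% under that unadjusted p. DESeq2 called 0.148% of all genes. The largest values among the 9 genes other than Tead4 were 0.60 ± 0.78 for Tead1 and 0.52 ± 0.46 for Yap1 (log2, SE), the first smaller and the second slightly larger than its standard error.

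**Figure D4:**
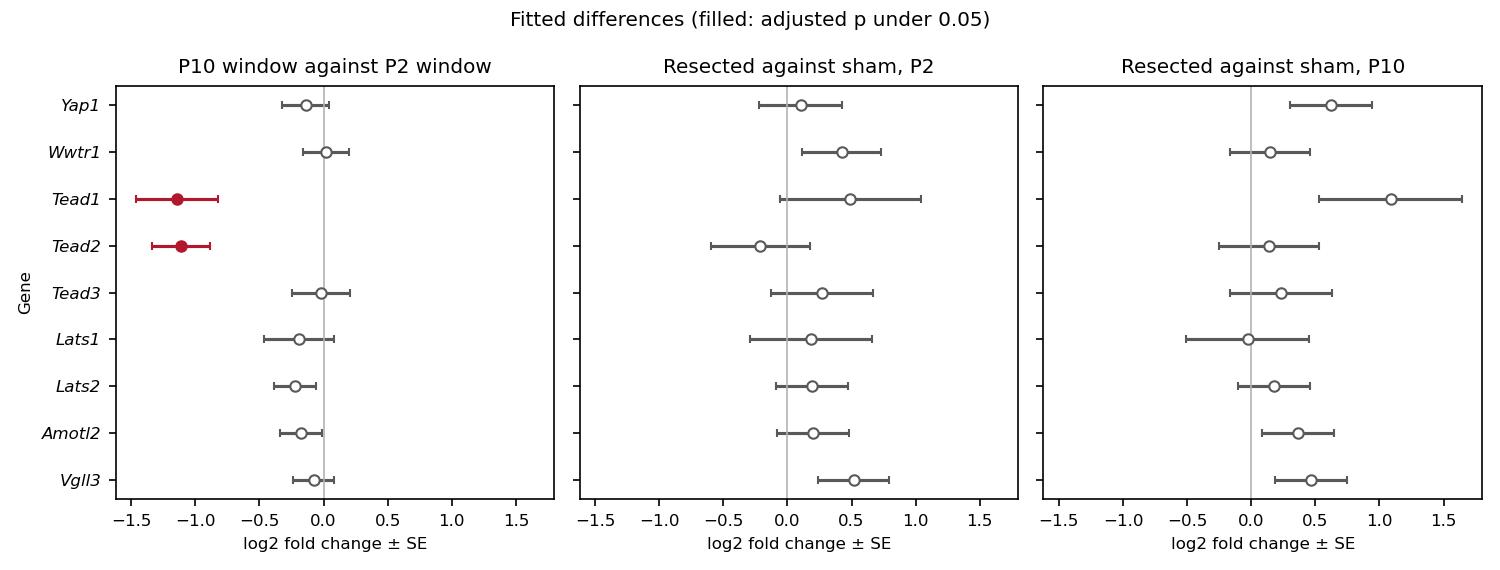
Fitted log2 fold change ± SE (horizontal axes) of 9 of the 10 genes (vertical axis) for the P10 window against the P2 window and for resection against sham surgery at P2 and at P10. Filled red points passed an adjusted p of 0.05 in edgeR, which only Tead1 and Tead2 did, at -1.14 and -1.11 in the window contrast, and Tead4 is left out because its counts were too few.

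The remaining comparisons held few calls. After sham surgery, Tead2 was the 1 gene of the 10 called between ages, where 3.18% of all genes were called and 1.65% were called lower, and also the 1 gene without overlap, where 16.7% of all genes had none. After resection, edgeR called 0 of the 10 between ages, where it called 0.860% of all genes. DESeq2 called 1, Tead2, where it called 3.07% of all genes. There, 2 of the 10 (Tead2 and Tead4) had an unadjusted p under 0.05, where 8.77% of all genes had, and the same 2 genes did not overlap, where 23.3% of all genes did not.

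Sham surgery against baseline, which also holds 3 days of growth, called 0 of the 10 genes at P2 and 0 at P10 with edgeR and with DESeq2. Among all genes edgeR called 0% and 0.00618%, and DESeq2 0.853% and 0.748%. Unadjusted p-values under 0.05 were found for 0 of the 10 genes at P2 and for 1 at P10, Tead2 (log2 fold change -0.87 ± 0.39, SE; edgeR adjusted p = 0.67), where 7.60% and 7.40% of all genes had one. Groups without overlap were found for 1 of the 10 at P2, Vgll3, and for none at P10, where 9.96% and 10.0% of all genes had none.

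The wider pathway was read from lists of genes. Of 21 further genes of the kinase cascade, edgeR called 0 between windows, with a median log2 fold change of -0.06 beside -0.06 over all genes. There, 6 of the 21 had an unadjusted p under 0.05, where 28.3% of all genes had, and DESeq2 called 1 higher and 2 lower, where it called 18.7% of all genes. Of 24 scaffolds and other regulators, 22 were tested and 1 was called, where 13.5% of all genes were called and 6.39% were called lower, so that this count says nothing particular of the list. It was Strip2, a component of the Hippo-inhibiting STRIPAK complexes. Strip2 was at 1.44 to 25.9 CPM in the P2 window and at 0 to 0.97 CPM in the P10 window, with a log2 fold change of -3.45 ± 0.62 (SE; edgeR adjusted p = 0.0011). In both resection comparisons edgeR called 0 genes of either list, as did DESeq2.

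Of 22 target genes of Yap1 and Tead, which include Amotl2 and Lats2, 6 rose, 2 fell and 14 were not called between windows, where 7.11% of all genes were called higher and 6.39% lower. The 2 that fell are near the share among all genes. Axl, a receptor tyrosine kinase, rose from 741 to 1372 CPM in the P2 window to 1878 to 3011 CPM in the P10 window (log2 fold change 1.32 ± 0.13, SE; edgeR adjusted p = 3.3e-06). Ccdc80, a secreted matrix-binding protein, had a log2 fold change of 1.51 ± 0.15 and F3, the tissue factor that starts coagulation, one of 1.67 ± 0.17. Of the 22 target genes, 4 did not overlap between windows, namely these and Axl, which were higher, and Dock5, which was lower, where 2.51% of all genes did not. Gadd45a, a stress-response gene, had a log2 fold change of 1.65 ± 0.37 (SE; edgeR adjusted p = 0.0053).

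The genes that fell were Ankrd1 and Dock5. Ankrd1, a nuclear protein that is also a cardiomyocyte stress gene, stood at 10.1 to 49.3 CPM in the P2 window and at 0.30 to 13.7 CPM in the P10 window (log2 fold change -2.51 ± 0.43, SE; edgeR adjusted p = 0.00074). Dock5, a guanine nucleotide exchange factor for Rac, stood at 3.07 to 11.6 CPM at P2 and at 0 to 2.95 CPM at P10 and had a log2 fold change of -2.25 ± 0.56 (SE; edgeR adjusted p = 0.012). The most used readouts of the pathway were Ccn2, with 0.65 ± 0.20 (SE; edgeR adjusted p = 0.035), and Ccn1, with 0.51 ± 0.20 (SE; edgeR adjusted p = 0.11).

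Other lists of genes were read beside these values, against 7.11% of all genes called higher and 6.39% called lower between windows. Of 8 immediate early genes, 5 rose, and their summed level was 3049 to 7686 CPM at P2 and 6279 to 14170 CPM at P10. All 8 cell cycle genes of a short list fell, and their summed level was 697 to 1295 CPM at P2 and 135 to 391 CPM at P10, without overlap. Of 11 tested cardiomyocyte markers 5 fell, and of 9 epicardial markers 1 fell. DESeq2, which called 18.7% of all genes between windows, called 8 and 2 of them lower. Fibroblast markers rose in 3 of 9 cases, mural markers in 3 of 9 and macrophage markers in 2 of 15, while edgeR called 0 of 9 endothelial markers, with 1 at an unadjusted p under 0.05 and 1 called by DESeq2. Summed levels overlapped between windows for each of these cell types, as with 45456 to 91863 CPM at P2 and 66926 to 105172 CPM at P10 for the fibroblast markers. The macrophage markers spread far more between libraries, with sums of 8.41 to 491 CPM at P2 and 20.0 to 1187 CPM at P10. The part of any of these in the values of Tead1, Tead2 and the target genes was not tested.

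**Figure D5:**
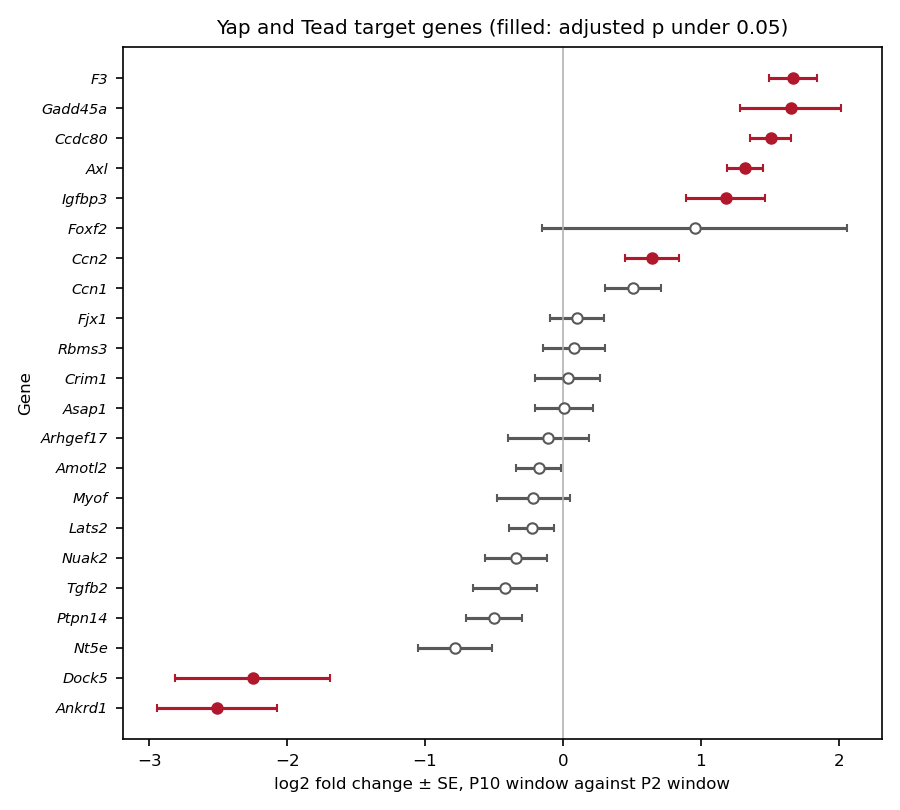
Fitted log2 fold change ± SE (horizontal axis) between the P10 and the P2 window for 22 target genes of Yap1 and Tead (vertical axis). Filled red points passed an adjusted p of 0.05 in edgeR: 6 genes, with F3 at 1.67, are higher at P10 and 2, with Ankrd1 at -2.51, are lower, while Amotl2 and Lats2 lie at -0.18 and -0.22.

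After resection the target genes gave no edgeR call at either age. Of the 22, 1 at P2 and 2 at P10 had an edgeR unadjusted p under 0.05, where 4.51% and 4.09% of all genes did. DESeq2 called 0 at P2 and 1 higher at P10, where it called 0.155% and 0.241% of all genes. Groups did not overlap for 1 of the 22 at P2 and for 4 at P10 (3 higher and 1 lower), where 8.47% and 8.68% of all genes did not. Ccn2, a matricellular growth factor, stood at 227, 164 and 164 CPM after sham surgery at P2 and at 173, 474 and 516 CPM after resection. At P10 it stood at 273, 315 and 253 CPM after sham surgery and at 774, 622 and 842 CPM after resection. The groups overlapped at P2 through resected replicate 1 and did not overlap at P10. The log2 fold changes of Ccn2 were 1.07 ± 0.34 at P2 and 1.41 ± 0.34 at P10 (SE; unadjusted p = 0.0058 and 0.00070, adjusted p = 1 and 0.63 by edgeR). Those of Ankrd1 were -0.04 ± 0.70 at P2 and 1.99 ± 0.75 at P10, where the 6 libraries overlapped, and those of Ccn1 were 0.24 ± 0.35 and 0.71 ± 0.35 (SE; edgeR adjusted p = 1 for each). At P10 all 8 cell cycle genes and all 9 epicardial markers also had positive log2 fold changes. So did 14 of 15 macrophage and 4 of 9 fibroblast markers, and edgeR called none of these genes. Their part in the target gene values was not tested.

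For each of the 10 genes, the genes whose log2 CPM followed it most closely over the 18 libraries were listed, as a description in which the points share library, depth and age. Those nearest to Tead1 were Rian (Pearson r = 0.95), Ddx46 (0.94) and Rap2c (0.94), and those nearest to Tead2 were Pmf1 (0.94), H2afx (0.94) and Marcksl1 (0.93), with no gene in common. Nearest to Wwtr1 were Lox (0.93), which encodes a collagen cross-linking enzyme, Lepr (0.90) and Tgfbr1 (0.89), a receptor for TGF-beta. Nearest to Yap1 were Phka2 (0.86), Agrn (0.82) and Urb1 (0.81).

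Near to Lats1 were Ep300 (0.94) and Ash1l (0.94), and Lats2 was closest to Taf1 (0.91), Cul3 (0.91) and N4bp2 (0.89). Amotl2 was closest to Col16a1 (0.87), Piezo1 (0.86), which encodes a mechanically gated channel, and Fam171a1 (0.83), and Vgll3 to Washc5 (0.85), Aida (0.82) and Sntg1 (0.82). Tead3 was closest to Khsrp (0.78), Gm26518 (0.77) and Stk10 (0.77), and Tead4, with its few counts, to Reln (0.73), Gm4787 (0.70) and Gm44275 (0.69).

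Among the 10 genes themselves, the closest pairs over the 18 libraries were Lats1 and Lats2 (r = 0.77), Lats2 and Amotl2 (0.76) and Yap1 and Amotl2 (0.74). Tead1 and Lats1 had r = 0.70. Wwtr1 and Tead2 had the most negative value, -0.49. Tead1 and Tead2, the pair that fell with age, had r = 0.26. Their levels went opposite ways within the P10 baseline group, where replicate 1 had 44.0 CPM of Tead1 and 23.4 CPM of Tead2 beside replicate 3 with 9.57 and 57.8 CPM.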

How the data were processed

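RNA of GFP-positive Tcf21-lineage cells was amplified with a SMARTer kit and sequenced in 18 libraries. The authors trimmed reads with fastp 0.20.0, mapped them with STAR 2.7.0f to GRCm38.p6 with GENCODE M22, and counted reads on exons per gene symbol with featureCounts of Subread 1.6.4, with its strand setting at 0 (no strand). What was deposited are the raw whole-number counts, with no normalization by the authors. By the counter's default, reads that overlap 2 genes are dropped.

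The tests used edgeR 4.0.16 under R 4.3.3, with filterByExpr (minimum count 10, minimum total 15), TMM scaling, a quasi-likelihood fit with 1 mean per group over 18 libraries, 9 contrasts, and Benjamini-Hochberg adjustment over 16170 genes. DESeq2 1.42.0 and other settings were run as alternatives, and the procedure was tested on simulated data. CPM values use TMM-scaled library sizes, and standard errors come from the quasi-likelihood F. Totals were 10462737 to 22980554 counts per library.

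The 10 genes and the lists were chosen with earlier results of these data known. Besides the 10, the text names up to 4 genes per direction and list called between windows, Ccn1, Ccn2 and Ankrd1, the fibroblast genes Tcf21 and Pdgfra, and the 3 genes nearest to each member by Pearson correlation of log2 CPM (prior count 2), of which 1 is not reported here. Exon lengths and positions are from GENCODE M21 and promoters from RefSeq. Exons of Yap1 overlap Gm20416 on the opposite strand over 1.25% of their bases and those of Tead2 overlap Cd37 over 0.272%. The 10 genes share stretches of at least 95% identity with transcripts of other genes over 5.6% of the longest Yap1 and 2.17% of the longest Amotl2 transcript, apart from Lats2 and Gm49361.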

Additional observations from a re-analysis of the deposited data

Results flagged for a closer look

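Within each window of 9 libraries, the highest and the lowest were judged by their gap to the next value, as a part of the range. For normally spread values chance alone marks about 1 of 20 such sets, and 20 sets were looked at. In the P2 window Tead2 reached 104 CPM in P2 sham +3 days replicate 2, apart from the other P2 libraries at 55.2 to 72.3 CPM. In the P10 window Tead4 reached 0.96 CPM, from 18 counts, in P10 baseline replicate 2, while the other P10 libraries held at most 5 counts. Most P10 libraries held 0 counts of Tead4, so the rate given above does not apply to it. Each window pools 3 conditions.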

How the results depend on the processing

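Of 90 results (10 genes in 9 comparisons), 3 were called. Tead2 between windows was called in all 26 alternative fits and Tead1 in 21 of 26. Among the 87 results not called, 145 of 2247 alternative values had the opposite sign, and 55 of the 87 changed sign in at least 1 alternative. The number of the 10 genes called moved from 0 to 1 at baseline without the low-count filter and with the replicate block. The same move came, in fits chosen after seeing the data, with the share on long genes as covariate or without its 3 highest libraries. After sham surgery the number moved from 1 to 2 without the filter and to 0 with only the compared groups. After resection it moved from 0 to 1 with DESeq2, without the filter, with only the compared groups and with the covariate. Leaving out 1 library at a time gave 0 to 1 at baseline (1 without P10 baseline replicate 1), 0 to 1 after sham surgery, 1 to 2 between windows and 0 in the 6 other comparisons. The cause was not tested.

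Over all genes, the settings other than leaving out 1 library gave 295 to 1703 calls at baseline against 709, 125 to 1191 after sham surgery against 515, 147 to 526 after resection against 139, and 2170 to 3324 between windows against 2183. Leaving out 1 library gave 264 (without P10 baseline replicate 2) to 1207 (without P10 baseline replicate 1), 312 to 627, 30 (without P2 resected +3 days replicate 2) to 194, and 1680 to 2987. DESeq2 called 25 and 39 genes after resection at P2 and P10, 24 for the interaction, and 138 and 121 for sham against baseline, where edgeR called 0, 0, 0, 0 and 1. Without the filter edgeR called 24, 76, 30, 110 and 151.

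The libraries were not taken as paired in the main fit. Whether same-numbered libraries belong together is not settled by the values that follow. Correlations of deviations were -0.13 to 0.38 over 45 same-numbered pairs (median 0.047) and -0.28 to 0.21 over 90 others (median -0.025), and 10 of 18 libraries were closest to their own number. The replicate block called Tead1 at baseline, 1 gene against 0, and changed no other call among the 10. Over all genes the block called 1008 at baseline against 709, and 2745 between windows against 2183. RLE scaling moved the median of all genes by at most 0.03 on the log2 scale.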
